A study of Mus musculus with 257 samples.

Results

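Cerebella labelled Ddx3x FL/FL were compared with wild-type (WT) cerebella of the normal background at postnatal day 30 or later (P30+). The comparison took every library labelled BD-FL-FL or WT in that background at that age, 5 of each, which is 10 of the 257 libraries of the series. Each library was made from total RNA of cerebellum and counted per gene. In the label BD-FL-FL, B was read as Blbp-Cre and D as the floxed Ddx3x allele, so that FL/FL names females with both copies of Ddx3x floxed. Blbp-Cre is a recombinase driven by the promoter of Fabp7 (Blbp), a gene of hindbrain progenitors and radial glia, so only their descendants can lose the gene and other cells of the cerebellum keep it. The WT labels name neither allele and no label gives the sex of these mice. Points of comparison were BD-FLY (read as males with the single copy floxed), BD-FLPlus (read as females with a floxed and an intact copy) and the FL/FL and WT cerebella at P13. Wnt-model cerebella at P30+ (BDCP-FLFL against BCP, where C and P were read as the model's Ctnnb1 and Pik3ca alleles) gave a contrast of the FL/FL label in another background. By Xist and Ddx3y, BDCP-FLFL libraries all had the female pattern and BCP libraries all the male one, so label and sex cannot be told apart there. Nothing in the labels says that the libraries of a group came from separate litters, so p-values cover the spread among these libraries, which may be technical. Each of the 10 labels ends in its own number, read as that of the mouse. These numbers run on without a gap for all WT libraries but replicate 5, and they do not in FL/FL. Whether those WT mice share a litter is not stated.

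DDX3X is an RNA helicase of the DEAD-box family that unwinds structured messenger RNA and takes part in translation initiation, stress granules and innate immune signalling. Its gene lies on the X chromosome, escapes X inactivation and has a close relative on the Y chromosome, Ddx3y. In the developing hindbrain, Blbp-positive progenitors give rise to cerebellar glia and neurons, and DDX3X is mutated in human medulloblastoma.

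The library checks came first, because the targeted gene was not called lower under the FL/FL label. Ddx3x (chrX:13280970-13294052, GRCm38) stood at 367, 353, 357, 393 and 394 CPM (counts per 1e+06 counts of the library) in the 5 libraries labelled FL/FL, against 399, 429, 358, 339 and 364 CPM in WT. The ranges overlapped, and the log2 fold change was 0.02 ± 0.08 (SE, 95% interval of the fold 0.907 to 1.14, edgeR quasi-likelihood test, adjusted p = 0.898). In the FLY libraries of the same age Ddx3x was at 157 to 186 CPM, below every WT library, with a log2 fold change against WT of -1.15 and an adjusted p of 6.38e-08. FLPlus libraries held 356 to 392 CPM, level with those labelled FL/FL. Every direction below therefore belongs to the FL/FL label and not to a measured loss of Ddx3x.

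Fabp7, whose promoter drives the recombinase, was at 26.2, 20.5, 44.4, 36.2 and 39.4 CPM in FL/FL libraries, against 71.4, 51.8, 62.4, 48.3 and 65.2 CPM in WT. The groups did not overlap, but the log2 fold change of -0.81 ± 0.30 did not pass the test (adjusted p = 0.155, edgeR). Of all genes tested, 3.84% had no overlap between the 5 FL/FL and 5 WT libraries. That share stands beside every P30+ gene below whose groups did not overlap. Xist, the RNA of the inactive X chromosome, was at 904 to 1415 CPM in all 5 FL/FL libraries. In WT it was at 1392 and 1156 CPM in replicates 1 and 2 and at 2.01 to 2.77 CPM in replicates 3, 4 and 5. Ddx3y showed the reverse, with 0.0570 to 0.213 CPM in FL/FL libraries, and in WT 70.0 to 82.0 CPM in replicates 3 to 5 and 1 count or none in replicates 1 and 2. The WT group thus held libraries of both sexes by these genes while the FL/FL libraries were all of the female pattern.

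Genes of a neighbouring region also differed between libraries. The 14 genes of a midbrain list, a region in front of the cerebellum, were summed per library, and a library was said to hold midbrain genes when the sum was over 3 times the WT median of 1.87 CPM. FL/FL replicates 3 and 5 held them, with sums of 46.8 and 15.98 CPM, and FL/FL replicates 1, 2 and 4 did not, with 1.53, 0.570 and 3.67 CPM. No WT library did, with sums of 0.635 to 3.83 CPM. The gene with the highest level of the list was Tfap2d, a transcription factor of the midbrain roof, at 22.3 and 6.06 CPM in FL/FL replicates 3 and 5 and at 0 CPM in the other 3, against 0.0504 to 0.130 CPM in WT. Foxa2 was at 0 in every library, and Slc6a3 and Pitx3, markers of dopamine neurons, stayed at or below 0.354 CPM in FL/FL and 0.151 CPM in WT. Cerebellar markers were lowest in FL/FL replicate 3, where Gabra6 of granule neurons was at 399 CPM and Pcp2 of Purkinje cells at 126 CPM, against WT ranges of 647 to 924 CPM and 184 to 261 CPM. The tissue was cerebellum in all 10 libraries by these markers. Totals were 16969500 to 18790170 counts in FL/FL and 12606224 to 19830259 counts in WT libraries, and mitochondrial genes took 1.60% to 3.62% of counts in FL/FL and 1.02% to 2.82% in WT.

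**Figure D1:**
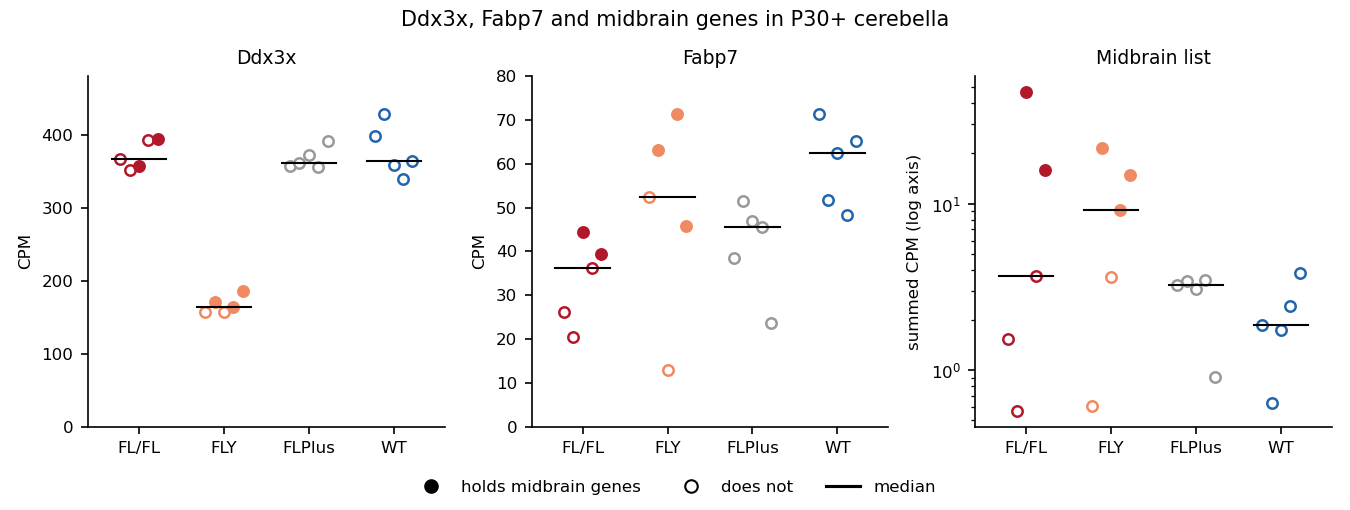
Levels in each P30+ library of the normal background, in CPM, for Ddx3x, Fabp7 and the sum of the midbrain list (log axis); filled points hold midbrain genes and bars are medians. Ddx3x is low in FLY libraries alone, and FL/FL replicates 3 and 5 reach midbrain sums of 46.8 and 15.98 CPM.

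With all libraries, 122 of 17827 genes tested were called (adjusted p under 0.05), which is 0.684%, and 61 of them rose and 61 fell in FL/FL (0.342% each). Without the libraries that hold midbrain genes, 3 FL/FL libraries stood against 5 WT and 34 of 18499 genes were called, 0.184%, of which 20 rose (0.108%) and 14 fell (0.0757%). In that fit the FLY group also lost 3 libraries. Only 13 genes were called in both, 10.7% of the first list and 38.2% of the second. All 122 genes of the first list kept their sign without the midbrain libraries, in fits that share the WT libraries and 3 FL/FL libraries. At an unadjusted p under 0.05 there were 3426 and 3242 genes, 19.2% and 17.5% of those tested. Counts depended on single libraries. With all libraries the count was 17 without FL/FL replicate 3, 192 without FL/FL replicate 5 and 558 without FL/FL replicate 2, and 48, 38, 21, 28 and 77 without WT replicates 1 to 5 in that order. Without the midbrain libraries it was 0, 3 and 60 without FL/FL replicates 1, 2 and 4, and 14, 16, 1, 1 and 152 without WT replicates 1 to 5. Titles of the deposit run through the alphabet in passes, and 4 of 5 WT libraries but only 1 FL/FL library lie in the first pass. With the pass as a block the counts were 46 and 2, and with the Xist level as a covariate they were 0 and 415. Beyond these fits, the parts of sex, pass and label in the calls cannot be told apart.

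**Figure D2:**
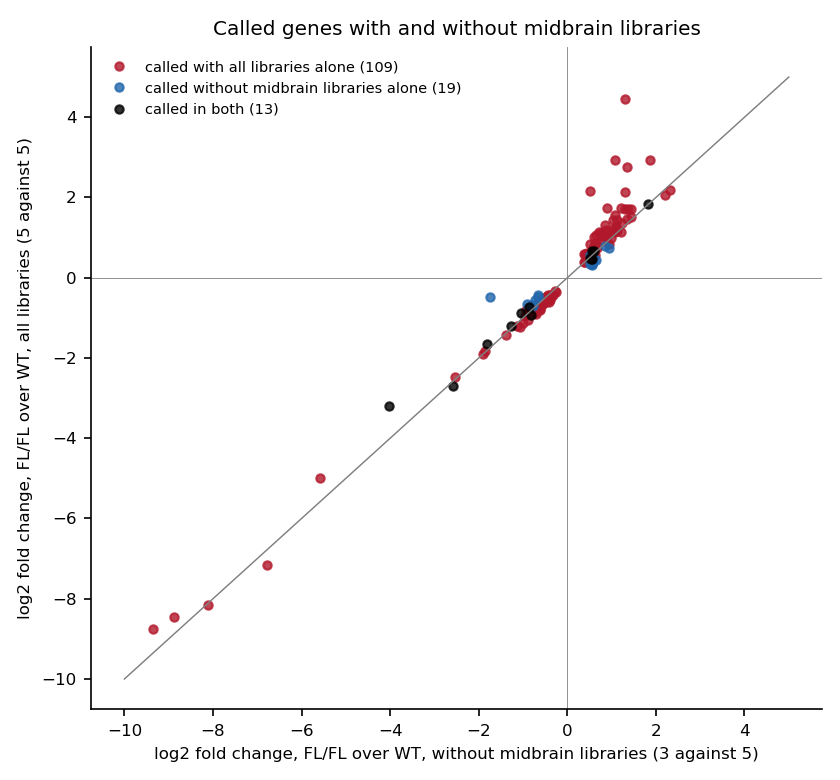
Log2 fold change of FL/FL over WT at P30+ with all libraries (vertical axis) and without those that hold midbrain genes (horizontal axis), for genes called in either fit and tested in both; the diagonal marks equal values. The largest rises with all libraries, such as Cd109 (4.46 against 1.31) and Gpnmb (2.93 against 1.07), lie above the diagonal, and of the 13 genes called in both Myoc (-3.20 against -4.02) lies farthest from it.

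Gpnmb, Cd109, C4b and Fcgr2b, each with a known role in glia or immune cells, were among the 12 largest rises with all libraries, and they were highest in the FL/FL libraries that hold midbrain genes. They belong to no list, and the astroglia and microglia lists had no call in that fit. Gpnmb, a membrane glycoprotein of lysosome-rich microglia and macrophages, was at 5.01, 2.96, 37.0, 5.11 and 34.1 CPM in FL/FL replicates 1 to 5, against 1.56, 2.38, 2.35, 2.37 and 2.33 CPM in WT. Every FL/FL library lay above every WT library, and replicates 3 and 5 lay far above the other 3. Gpnmb was called with all libraries (log2 fold change 2.93 ± 0.56, adjusted p = 0.0219) and not without the midbrain ones (1.07 ± 0.32, adjusted p = 0.122). Of 7 promoters that could be looked up, those of Gpnmb, Gfap and Osmr are shown because they alone held a motif match. Serpina3n, Fcgr2b, Cd44 and Eda2r, also highest in FL/FL replicates 3 and 5, held none. The display therefore shows no motif shared by the genes high in those libraries. Each sequence shown is the RefSeq one of 250 bases before to 50 bases after the gene's start (GRCm38.p6), 5′ to 3′ on the gene's strand. Capitals mark matches to TGANTCA, a loose form of the AP-1 motif in which the middle base is free, or TTCNNNGAA, the STAT motif.

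Gpnmb, chr6:49036268-49036567, plus strand: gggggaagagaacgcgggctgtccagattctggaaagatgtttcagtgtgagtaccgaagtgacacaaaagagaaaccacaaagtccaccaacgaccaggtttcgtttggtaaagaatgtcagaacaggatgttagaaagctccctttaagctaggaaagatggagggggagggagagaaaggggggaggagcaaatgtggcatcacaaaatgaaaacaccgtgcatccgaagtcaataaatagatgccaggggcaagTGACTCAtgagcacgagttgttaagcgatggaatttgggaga
Gfap, chr11:102897151-102897450, minus strand: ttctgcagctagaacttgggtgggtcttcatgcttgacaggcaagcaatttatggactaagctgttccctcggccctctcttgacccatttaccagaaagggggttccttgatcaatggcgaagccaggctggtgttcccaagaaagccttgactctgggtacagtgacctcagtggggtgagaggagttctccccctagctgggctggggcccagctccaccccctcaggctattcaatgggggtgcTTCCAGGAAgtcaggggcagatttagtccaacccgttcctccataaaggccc
Osmr, chr15:6874264-6874563, minus strand: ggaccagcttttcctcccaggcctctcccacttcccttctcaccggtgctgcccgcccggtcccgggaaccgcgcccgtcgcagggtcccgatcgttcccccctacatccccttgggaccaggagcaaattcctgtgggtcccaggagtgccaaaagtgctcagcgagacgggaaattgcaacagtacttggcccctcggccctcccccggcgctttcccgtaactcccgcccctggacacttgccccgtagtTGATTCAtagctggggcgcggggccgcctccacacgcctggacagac

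TGANTCA, which reads the same on both strands, was found 9 bases into the Gpnmb transcript as TGACTCA and 4 bases into that of Osmr as TGATTCA. With any middle base, TGANTCA is in 7.81% of all 32851 promoters of the table. TTCNNNGAA, also the same on both strands, began 2 bases before the Gfap start as TTCCAGGAA, and is in 8.3% of promoters. TCACNTGA or its reverse TCANGTGA, the motif of MITF and TFE factors and in 4.18% of promoters, was in none of the 7 promoters that could be looked up, which also included Serpina3n, Fcgr2b, Cd44 and Eda2r. Those 4 held none of the 3 motifs. Cd109 and C4b are named only.

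Cd109, a surface protein that binds TGF-beta, was at 2.42, 0.456, 51.7, 2.50 and 27.4 CPM in FL/FL libraries, against 0.729, 0.317, 0.601, 1.31 and 0.778 CPM in WT (log2 fold change 4.46 ± 0.86 with all libraries, adjusted p = 0.0232; 1.31 ± 0.48 without the midbrain ones, adjusted p = 0.18). FL/FL replicate 2 lay inside the WT range and replicates 3 and 5 stood highest. C4b, a complement component (chr17:34728380-34743882), was at 18.03, 4.39, 99.4, 22.7 and 63.2 CPM in FL/FL, against 6.30, 3.49, 5.90, 8.07 and 7.20 CPM in WT (2.75 ± 0.50, adjusted p = 0.0174; 1.35 ± 0.35 without, adjusted p = 0.086). Again FL/FL replicate 2 alone overlapped WT. Fcgr2b, the inhibitory receptor for immunoglobulin G, was at 2.24, 1.60, 18.9, 2.82 and 10.96 CPM in FL/FL, against 1.72, 1.43, 1.47, 2.02 and 1.56 CPM in WT (2.16 ± 0.48, adjusted p = 0.0455; 0.52 ± 0.26 without, adjusted p = 0.318). Gfap, the intermediate filament of reactive astrocytes, was at 148, 84.5, 1318, 177 and 509 CPM in FL/FL, against 110, 79.6, 112, 147 and 135 CPM in WT. It missed the threshold both with all libraries (1.96 ± 0.48, adjusted p = 0.0573) and without (0.31 ± 0.22, adjusted p = 0.491). The 12 genes of the astroglia list, to which Gfap belongs, went both ways with all libraries, with 6 above 0 and a median log2 fold change of 0.02. S100b, a calcium-binding protein of astroglia, was at -0.26 ± 0.11 (adjusted p = 0.21). Serpina3n, a secreted protease inhibitor of reactive astrocytes, reached 197 and 107 CPM in FL/FL replicates 3 and 5, against at most 14.2 CPM in WT, and was not called (3.03 ± 1.00, adjusted p = 0.12; 0.61 ± 0.94 without, adjusted p = 0.781). Osmr, the oncostatin M receptor, and Cd44, a hyaluronan receptor, were likewise highest in FL/FL replicates 3 and 5 and not called (adjusted p = 0.0993 and 0.262). Serpina3n, Osmr and Cd44 were chosen after their values were seen.

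FLY libraries that hold midbrain genes did not reach the Gpnmb, Cd109 and Gfap levels of FL/FL replicates 3 and 5. WT libraries at P13 that hold them did not reach those of Gpnmb. The text gives no values of C4b, Fcgr2b, Serpina3n, Osmr and Cd44 for these libraries. In the Wnt background 3 of 5 BCP libraries and no BDCP-FLFL library hold midbrain genes. There the log2 folds of BDCP-FLFL over BCP were negative for Gpnmb, Cd109, C4b, Fcgr2b, Gfap, Serpina3n, Osmr and Cd44. They ran from -0.53 to -1.36, with Cd44 alone called. A link with midbrain genes was not tested. FLY replicates 2, 4 and 5 had midbrain sums of 21.6, 9.16 and 14.8 CPM, and their Gpnmb was at 1.33, 1.07 and 1.04 CPM, below every WT library. Their Cd109 was at 0.857, 1.41 and 0.795 CPM and their Gfap at 143, 163 and 129 CPM, against WT maxima of 1.31 and 147 CPM. At P13 the FL/FL libraries held 30.1, 11.1, 1.17, 7.82 and 12.6 CPM of Gpnmb, against 0.939, 0.503, 0.929, 0.636 and 0.653 CPM in WT of that age, where WT replicates 3, 4 and 5 had midbrain sums of 141, 9.33 and 64.5 CPM. In 4 of the 5 FL/FL libraries at P13 midbrain genes were held too, with sums of 57.6, 7.96, 6.64 and 18.2 CPM in replicates 1, 2, 4 and 5, and replicate 3, at 3.85 CPM, had the lowest Gpnmb. The groups did not overlap (log2 fold change 4.09 ± 0.54, adjusted p = 0.00146). Cd109 (3.79 ± 0.49, adjusted p = 0.00119), C4b (2.01 ± 0.39, adjusted p = 0.0316), Fcgr2b (1.57 ± 0.24, adjusted p = 0.00828) and Gfap (1.79 ± 0.37, adjusted p = 0.0403) were also called at P13. These are other animals with other controls. Without the P13 libraries whose midbrain sum was over 10 times the WT P30+ median, Gpnmb, Cd109 and C4b were called (adjusted p = 0.0359, 0.0359 and 0.0357). Their folds were 3.63 ± 0.61, 3.75 ± 0.62 and 2.77 ± 0.40. Fcgr2b (1.25 ± 0.26, adjusted p = 0.0903) and Gfap (1.23 ± 0.35, adjusted p = 0.192) were not called. At P13 86 of 18679 genes were called, 0.46%, and 22 of 18553, 0.119%, without those libraries. That cutoff, 18.74 CPM, left in FL/FL replicates 2, 4 and 5 and WT replicate 4, which hold midbrain genes. The fit is therefore not one without midbrain libraries.

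**Figure D3:**
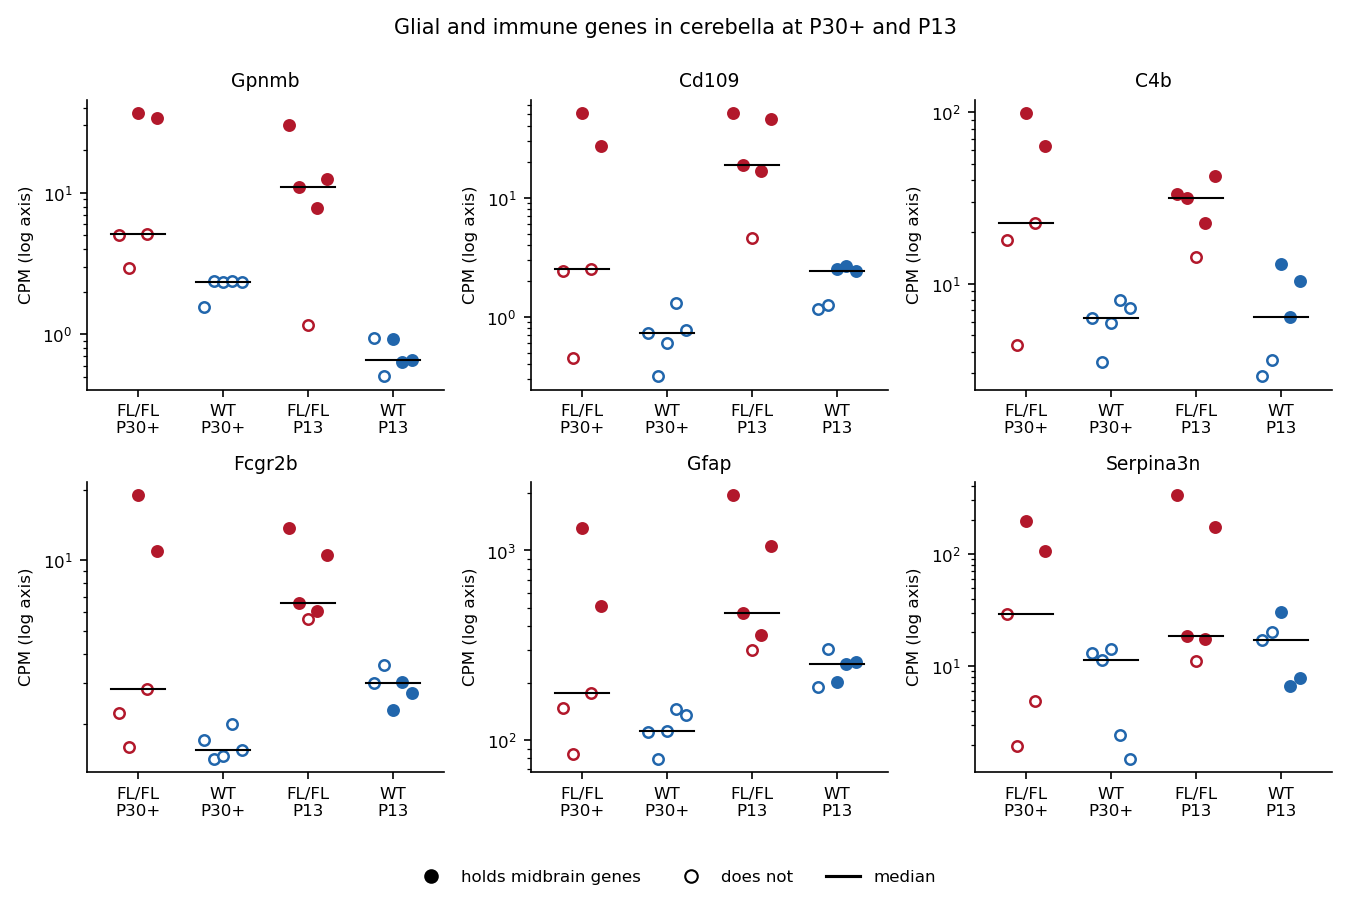
Glial and immune genes in CPM (log axis) in FL/FL and WT libraries at P30+ and P13; filled points hold midbrain genes and bars are medians. FL/FL replicates 3 and 5 stand highest at P30+, while all WT libraries at P13, with or without midbrain genes, stay at or below 0.939 CPM of Gpnmb.

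Resident microglia markers had smaller folds than Gpnmb. None of the 12 genes of the microglia list was called, but all 12 were higher with all libraries and 11 had an unadjusted p under 0.05, with a median log2 fold change of 0.78 against -0.005 over all genes. Over all genes 19.2% had such a p, in either direction. The 12 genes were measured in the same libraries, so their p-values are not separate results. Without the midbrain libraries the median was 0.15 and none had an unadjusted p under 0.05. The summed level of the list was 154, 102, 413, 161 and 287 CPM in FL/FL, against 102, 108, 136, 160 and 147 CPM in WT, so FL/FL replicates 3 and 5 stood far above the WT range and the other 3 at or within it. Csf1r, the receptor that microglia need to survive, was at 98.2 and 49.2 CPM in those replicates and 24.6 to 35.1 CPM in the other FL/FL libraries, against 18.8 to 32.3 CPM in WT. Of the 16 interferon response genes none was called, with medians of 0.61 with all libraries and 0.05 without. The 7 genes tested of the Ifi200 cluster, which senses foreign DNA, had medians of 1.52 and 0.50 and no call. WT replicates 1 to 5 at P13 summed to 113, 121, 315, 178 and 179 CPM for the microglia list. Replicates 3, 4 and 5 of them hold midbrain genes. BCP replicates 1, 3 and 4, which hold such genes, summed to 260, 282 and 244 CPM. BCP replicates 2 and 5, which do not, summed to 169 and 215 CPM. FLY replicates 2, 4 and 5, which hold them, summed to 154, 176 and 148 CPM. FLY replicates 1 and 3 summed to 127 and 170.5 CPM. A link with midbrain genes was not tested. In bulk tissue more cells of a type and more RNA per cell cannot be told apart.

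Of genes of antigen presentation, for which no list was made, H2-T22, H2-Eb1 and Cd74 were called higher with all libraries, and the first 2 were picked after their values were seen. H2-T22, a class I-like gene, was at 14.7, 17.7, 17.6, 15.4 and 20.9 CPM in FL/FL, against 11.03, 10.2, 9.12, 10.99 and 11.7 CPM in WT, with no overlap (0.74 ± 0.15, adjusted p = 0.026; 0.68 ± 0.17 without midbrain libraries, adjusted p = 0.0806). Reads of class I genes can be split among near-identical members, so its level is uncertain. H2-Eb1, a chain of class II, was at 1.53, 0.513, 4.81, 1.65 and 3.09 CPM in FL/FL, against 0.202 to 0.781 CPM in WT (2.14 ± 0.47, adjusted p = 0.0399), and Cd74, the class II chaperone, was at 1.08 to 10.3 CPM in FL/FL, against 0.885 to 2.17 CPM in WT (1.74 ± 0.40, adjusted p = 0.0493). Neither was called without the midbrain libraries, where H2-Eb1 had a fold of 1.29 ± 0.45 (adjusted p = 0.163) and Cd74 one of 1.2045 ± 0.42 (adjusted p = 0.167). H2-T22, H2-Eb1 and Cd74 were also higher than WT in FLY (0.60, 1.13 and 1.01) and in FLPlus (0.44, 1.25 and 1.16) with all libraries, with no call. Over FLPlus without the midbrain libraries, FL/FL was at 0.24, 0.05 and 0.04 for the same genes, with no call.

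Of the 12 p53 targets 1 rose with all libraries, where 0.342% of all genes rose, and none without. Eda2r, a death-domain receptor of the TNF receptor family, was at 1.83, 0.285, 5.92, 1.28 and 3.03 CPM in FL/FL, against 0.520, 0.159, 0.328, 0.252 and 0.324 CPM in WT (2.94 ± 0.54, adjusted p = 0.0193; 1.87 ± 0.49 without, adjusted p = 0.0878). Only FL/FL replicate 2 overlapped WT. Cdkn1a, the cell cycle inhibitor p21, was at 27.5, 27.6, 64.1, 39.1 and 40.2 CPM in FL/FL, against 17.9 to 29.9 CPM in WT, and was not called (adjusted p = 0.0912). The median over the 12 targets was 0.39 with all libraries and 0.20 without, against -0.005 and -0.02 over all genes.

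Among cerebellar neurons, a pair of interneuron genes fell with all libraries and 1 Purkinje marker rose without the midbrain libraries. Over all genes 0.342% fell with all libraries and 0.108% rose without the midbrain ones. Kit, a receptor tyrosine kinase of molecular layer interneurons, was at 196, 179, 138, 164 and 148 CPM in FL/FL, against 237, 254, 251, 252 and 252 CPM in WT. Grm2, a glutamate receptor of Golgi cells, was at 13.7, 18.3, 12.3, 15.5 and 12.9 CPM in FL/FL, against 24.7, 26.0, 25.9, 27.6 and 25.0 CPM in WT. Neither gene's groups overlapped, which held for 3.84% of all genes tested with all libraries. Kit fell by 0.54 ± 0.12 (adjusted p = 0.0455) and Grm2 by 0.78 ± 0.15 (adjusted p = 0.0204) on the log2 scale. Without the midbrain libraries the folds were -0.38 ± 0.11 and -0.62 ± 0.16 and neither was called (adjusted p = 0.113 and 0.0848). The other 8 interneuron genes were not called in either fit, and the list's median was -0.32 with all libraries and -0.31 without. Kit and Grm2 had negative folds at P13 too, with no call (-0.91, adjusted p = 0.0538, and -0.65, adjusted p = 0.167).

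Slc1a6, the glutamate transporter of Purkinje cells, was at 169, 190, 94.7, 171 and 156 CPM in FL/FL, against 131, 110, 130, 125 and 137 CPM in WT. FL/FL replicate 3 lay below WT and the other 4 above it. It was called without the midbrain libraries (0.57 ± 0.09, adjusted p = 0.0229) and not with all (0.35 ± 0.14, adjusted p = 0.188). All 12 Purkinje markers were higher without the midbrain libraries, with a median of 0.40, and Slc1a6 was the 1 of them called. Cacna1g, a T-type calcium channel, was at 617, 586, 408, 648 and 547 CPM in FL/FL, against 452 to 470 CPM in WT (0.51 ± 0.08 without midbrain libraries, adjusted p = 0.0336; 0.33 ± 0.12 with all, adjusted p = 0.155). Granule neuron markers had no call in either fit, with medians of -0.11 with all libraries and 0.15 without. Aldh1l1, a folate enzyme of astroglia, was at 73.2, 71.1, 104, 69.6 and 63.9 CPM in FL/FL, against 44.8 to 61.2 CPM in WT, with no overlap (0.50 ± 0.09 without midbrain libraries, adjusted p = 0.0338; 0.56 ± 0.14 with all, adjusted p = 0.0663). It was the 1 of 12 astroglia genes called without the midbrain libraries, where 9 were above 0 and the median was 0.16.

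Homer1, a scaffold of the postsynaptic density, was at 67.4, 63.0, 59.2, 63.9 and 33.8 CPM in FL/FL, against 36.9, 39.2, 32.4, 32.7 and 36.8 CPM in WT. FL/FL replicate 5 alone lay inside the WT range. It was called without the midbrain libraries (0.95 ± 0.15, adjusted p = 0.0229) and not with all (0.75 ± 0.20, adjusted p = 0.079). Kalrn, a guanine nucleotide exchange factor of dendritic spines, was called in both fits and had the smallest p with all libraries. It was at 85.2, 69.4, 93.3, 77.7 and 87.8 CPM in FL/FL, against 51.5, 55.1, 57.3, 45.9 and 58.7 CPM in WT, without overlap (0.66 ± 0.09, adjusted p = 0.00523; 0.61 ± 0.11 without midbrain libraries, adjusted p = 0.0338). It was also called at P13 (0.71 ± 0.15, adjusted p = 0.0401), and not without the P13 libraries over 10 times the midbrain median (0.82 ± 0.15, adjusted p = 0.0524). Prox1, a transcription factor of granule cells and interneurons, rose without the midbrain libraries (0.65 ± 0.12, adjusted p = 0.0338), as did Kmt2d, a histone H3 lysine methyltransferase (0.56 ± 0.11, adjusted p = 0.0464).

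**Figure D4:**
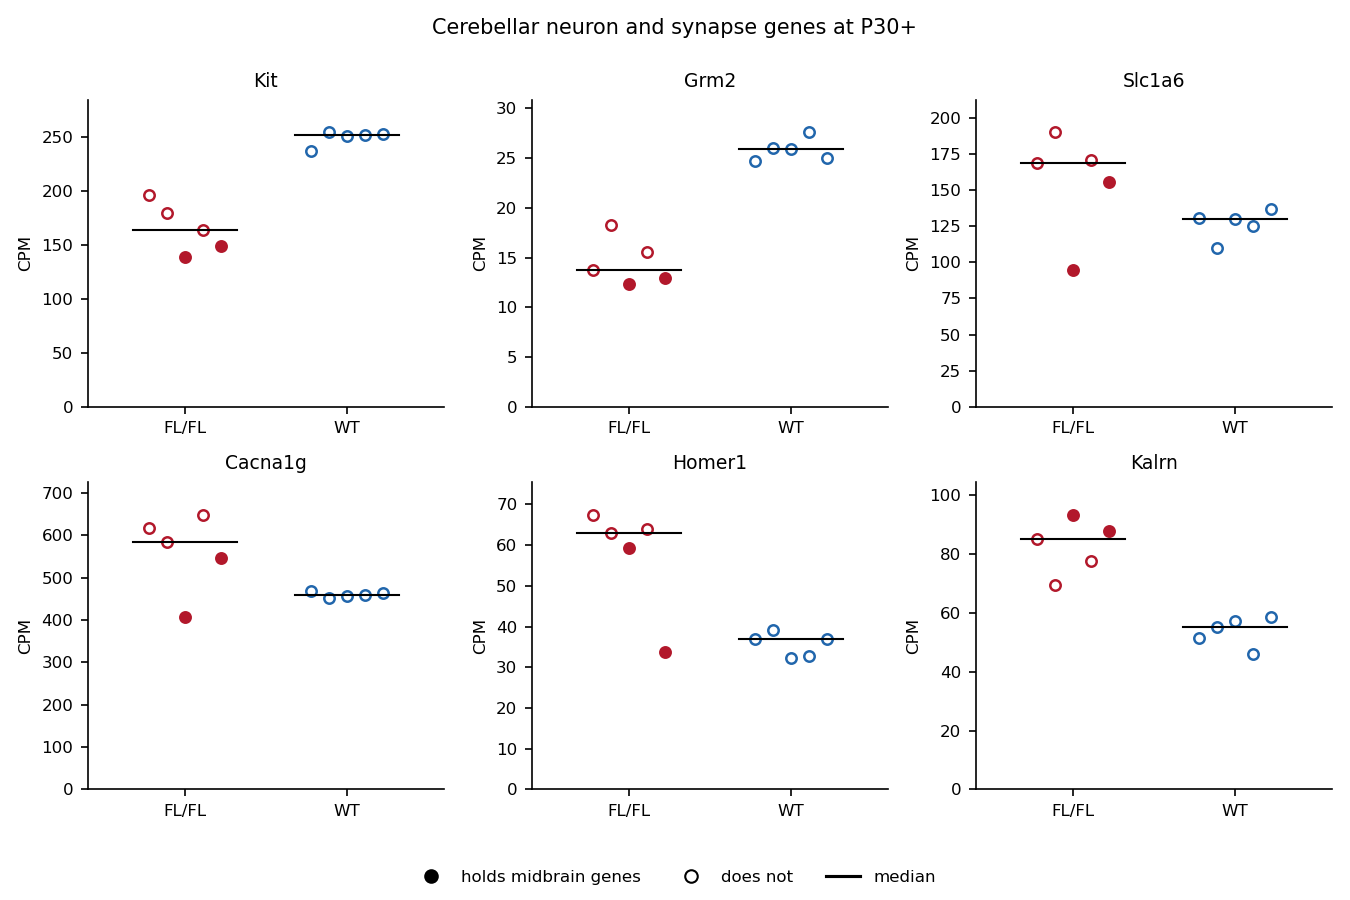
Cerebellar neuron and synapse genes in CPM in FL/FL and WT libraries at P30+; filled points hold midbrain genes and bars are medians. Kit and Grm2 are lower in every FL/FL library than in WT, and FL/FL replicate 3 is lowest for Slc1a6 and Cacna1g.

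With all libraries, of the 16 genes of neuronal wiring 3 rose, none fell and the median was 0.65. Over all genes 0.342% rose and 0.342% fell. Robo1, a receptor for the repulsive cue Slit, was at 28.6, 35.0, 59.9, 32.1 and 33.6 CPM in FL/FL, against 18.4 to 27.0 CPM in WT (0.85 ± 0.17, adjusted p = 0.0284). Robo2, its relative, was at 41.8 to 79.4 CPM in FL/FL, against 25.5 to 36.9 CPM in WT (0.87 ± 0.16, adjusted p = 0.0188). Sdk1, an adhesion protein of synaptic layers, was at 7.18 to 21.8 CPM in FL/FL, against 5.15 to 7.10 CPM in WT (1.06 ± 0.23, adjusted p = 0.0399). None of the 3 overlapped between groups, and none was called without the midbrain libraries, where Robo1 had a fold of 0.65 ± 0.14 (adjusted p = 0.052), Robo2 one of 0.63 ± 0.15 (adjusted p = 0.067) and Sdk1 one of 0.65 ± 0.21 (adjusted p = 0.135), and the list's median was 0.19. Groups without overlap made up 3.84% of all genes tested with all libraries and 15.5% without the midbrain ones. Robo1, Robo2 and Sdk1 were also higher than WT in FLY (0.68, 0.46 and 1.40) and in FLPlus (0.52, 0.33 and 0.65) with all libraries. Of these, Sdk1 in FLY was called (adjusted p = 0.0151, edgeR). Over FLPlus without the midbrain libraries, FL/FL was at 0.13, 0.30 and 0.004 for the same genes, with no call.

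Thbs1, thrombospondin 1, a matrix protein of astroglia that promotes synapse formation, was at 8.60, 10.7, 21.4, 15.01 and 18.6 CPM in FL/FL, against 7.60, 6.98, 6.77, 4.94 and 7.07 CPM in WT (1.19 ± 0.19, adjusted p = 0.0074). Fmod, a collagen-binding proteoglycan, was at 25.5, 16.53, 47.5, 27.3 and 31.0 CPM in FL/FL, against 10.7, 8.33, 12.3, 10.2 and 14.7 CPM in WT (1.43 ± 0.25, adjusted p = 0.0165). Both were higher in every FL/FL library. Neither was called without the midbrain libraries, with folds of 0.86 ± 0.18 for Thbs1 and 1.119 ± 0.23 for Fmod and an adjusted p of 0.052 for each. Thbs1 and Fmod were at 0.23 and 0.34 in FLY and at 0.85 and 0.74 in FLPlus against WT with all libraries, with no call. Over FLPlus without the midbrain libraries, FL/FL was at 0.01 for Thbs1 and 0.38 for Fmod, with no call. Fkbp5, a co-chaperone of the glucocorticoid receptor that its ligand induces, was at 15.4, 18.5, 33.4, 9.26 and 28.7 CPM in FL/FL, against 6.71, 6.74, 7.64, 8.67 and 6.36 CPM in WT (1.57 ± 0.31, adjusted p = 0.0237; 1.08 ± 0.28 without, adjusted p = 0.0862). Kcna4, a voltage-gated potassium channel, was at 3.73 to 14.3 CPM in FL/FL, against 1.80 to 3.05 CPM in WT (1.71 ± 0.31, adjusted p = 0.0188; 1.37 ± 0.30 without, adjusted p = 0.0617). Klf4, a zinc-finger transcription factor, was at 8.04 to 13.1 CPM in FL/FL, against 2.92 to 6.74 CPM in WT (1.22 ± 0.26, adjusted p = 0.0399; 1.10 ± 0.28 without, adjusted p = 0.0877). Foxp2, a transcription factor of Purkinje cells and other brain regions, was at 59.5 and 24.7 CPM in FL/FL replicates 3 and 5 and 12.2 to 14.0 CPM in the other 3, against 4.32 to 9.73 CPM in WT (1.74 ± 0.40, adjusted p = 0.0482; 0.89 ± 0.24 without, adjusted p = 0.0919).

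The 13 genes called in both fits split into 6 that rose and 7 that fell. Besides Kalrn, the rises were Abr, a regulator of small GTPases (0.66 ± 0.10 with all libraries, adjusted p = 0.0074; 0.56 ± 0.10 without, adjusted p = 0.0356), Noct, a circadian phosphatase (0.49 ± 0.08, adjusted p = 0.011; 0.51 ± 0.09, adjusted p = 0.035), Slc35e1, a member of the solute carrier 35 family (0.48 ± 0.10, adjusted p = 0.0348; 0.57 ± 0.09, adjusted p = 0.0229), Mxd4, a partner of MAX that opposes MYC (0.47 ± 0.11, adjusted p = 0.0476; 0.53 ± 0.10, adjusted p = 0.0338), and the predicted RNA Gm26917. Abr was at 253 to 375 CPM in FL/FL, against 171 to 207 CPM in WT. Noct was at 41.9 to 50.6 CPM in FL/FL, against 31.8 to 41.0 CPM in WT. Mxd4 was at 128 to 156 CPM in FL/FL, against 100 to 108 CPM in WT. In each of these the groups did not overlap, as in 3.84% of all genes tested with all libraries. Gm26917 was at 19.03, 50.8, 53.9, 26.7 and 15.98 CPM in FL/FL, against 5.46, 15.6, 5.30, 10.6 and 11.3 CPM in WT. At P13 none of the 13 but Kalrn was called. Folds there were near 0 for Noct (-0.08 ± 0.11), Slc35e1 (0.03 ± 0.12) and Fgfbp3 (0.08 ± 0.24), and Sertad1, lower at P30+, was at 0.71 ± 0.30 (adjusted p = 0.37).

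Fgfbp3, a secreted carrier of fibroblast growth factors (chr19:36917550-36919615), had the smallest p of the falls in both fits. It was at 4.77, 4.50, 3.69, 4.10 and 7.29 CPM in FL/FL, against 10.8, 10.9, 12.7, 13.1 and 10.1 CPM in WT (-1.21 ± 0.17, adjusted p = 0.00523; -1.28 ± 0.16 without, adjusted p = 0.00681), and it was 1 of the 2 genes still called without the midbrain libraries and with the pass through the alphabet as a block. Sertad1, a cofactor of E2F transcription, was at 5.19, 6.04, 6.28, 5.16 and 9.51 CPM in FL/FL, against 8.95, 11.03, 14.3, 12.6 and 13.2 CPM in WT (-0.87 ± 0.17, adjusted p = 0.0229; -1.05 ± 0.19 without, adjusted p = 0.0338). Slc29a1, a nucleoside transporter, was at 27.9 to 51.7 CPM in FL/FL, against 50.1 to 68.8 CPM in WT (-0.72 ± 0.16, adjusted p = 0.0425; -0.87 ± 0.15, adjusted p = 0.0338). FL/FL replicate 5 was the highest of its group in all 3 genes, and it alone overlapped WT for Sertad1 and Slc29a1. Myoc, myocilin, a secreted glycoprotein, had 0, 0, 15, 9 and 3 counts in FL/FL, against 32, 25, 62, 90 and 48 counts in WT (adjusted p = 0.0219; 0.0338 without). Gcgr, the glucagon receptor, had 2, 5, 0, 4 and 6 counts in FL/FL, against 38, 10, 28, 16 and 24 counts in WT (adjusted p = 0.0153; 0.0338 without). Both are near the detection limit in FL/FL. Gm15609, a predicted RNA, was at 5.25 to 6.76 CPM in FL/FL, against 9.93 to 12.1 CPM in WT, and Gm10260 completes the list. Daam2, a formin of Wnt signalling, fell with all libraries, at 107 to 140 CPM in FL/FL, against 194 to 258 CPM in WT (-0.73 ± 0.13, adjusted p = 0.0153), and was at -0.64 ± 0.15 without (adjusted p = 0.0642).

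Several of these genes had levels in FLY and FLPlus libraries that also stood apart from WT, the group that all 3 contrasts share. Of the 17827 genes tested with all libraries, 20 were called in FLY against WT (0.112%) and 5 in FLPlus against WT (0.028%). Fgfbp3 was at 4.72 to 8.90 CPM in FLY and 4.86 to 7.42 CPM in FLPlus, both below the lowest WT library. Sertad1 was at 4.72 to 6.90 CPM in FLY and 4.11 to 6.61 CPM in FLPlus. Against WT, Sertad1 was called lower in FLY (-0.99, adjusted p = 0.0151) and in FLPlus (-1.15, adjusted p = 0.0152). Msh5, a meiotic MutS homologue in the major histocompatibility region (chr17:35028605-35046745), was at 5.42, 3.02, 1.52, 3.14 and 4.72 CPM in FL/FL, 2.14 to 3.76 CPM in FLY and 3.11 to 5.78 CPM in FLPlus, against 9.84, 10.2, 6.61, 8.22 and 8.24 CPM in WT. It was called lower in FL/FL (-1.23 ± 0.25, adjusted p = 0.0315) and in FLY (-1.58, adjusted p = 0.0151).

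BC023719, annotated in GENCODE as an antisense transcript of the same region (chr17:36111426-36117121), came close to present or absent. It had 2, 0, 3, 1 and 2 counts in FL/FL and 1 to 4 counts in FLY, against 75, 39, 56, 65 and 42 counts in WT. In FLPlus replicates 1 to 4 it had 3, 2, 0 and 1 counts, and in FLPlus replicate 5 it had 55. Gm10260, which RefSeq lists as Rps18-ps6, a pseudogene of the ribosomal protein gene Rps18, followed the same libraries. It was at 2.65, 2.45, 3.46, 2.23 and 3.21 CPM in FL/FL, 2.53 to 3.90 CPM in FLY and 3.05, 3.42, 2.54, 3.13 and 8.46 CPM in FLPlus, against 9.32, 9.60, 10.1, 8.27 and 8.24 CPM in WT (-1.66 ± 0.26, adjusted p = 0.0074; -1.81 ± 0.32 without, adjusted p = 0.0338). Reads of such a copy and its parent can be split in counting, and the strand setting of the counting is not given in the sources used here, so both levels are uncertain. Psmc3ip, a gene of meiotic recombination, was at 4.30, 5.76, 4.34, 2.08 and 5.95 CPM in FL/FL, 4.91 to 6.57 CPM in FLY and 1.22 to 2.32 CPM in FLPlus, against 0.843 to 2.22 CPM in WT (1.45 ± 0.27, adjusted p = 0.0188; 1.35 ± 0.33 without, adjusted p = 0.0726). FL/FL replicate 4 alone lay inside the WT range, and at P13 the fold was -1.12 with no call (adjusted p = 0.438).

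**Figure D5:**
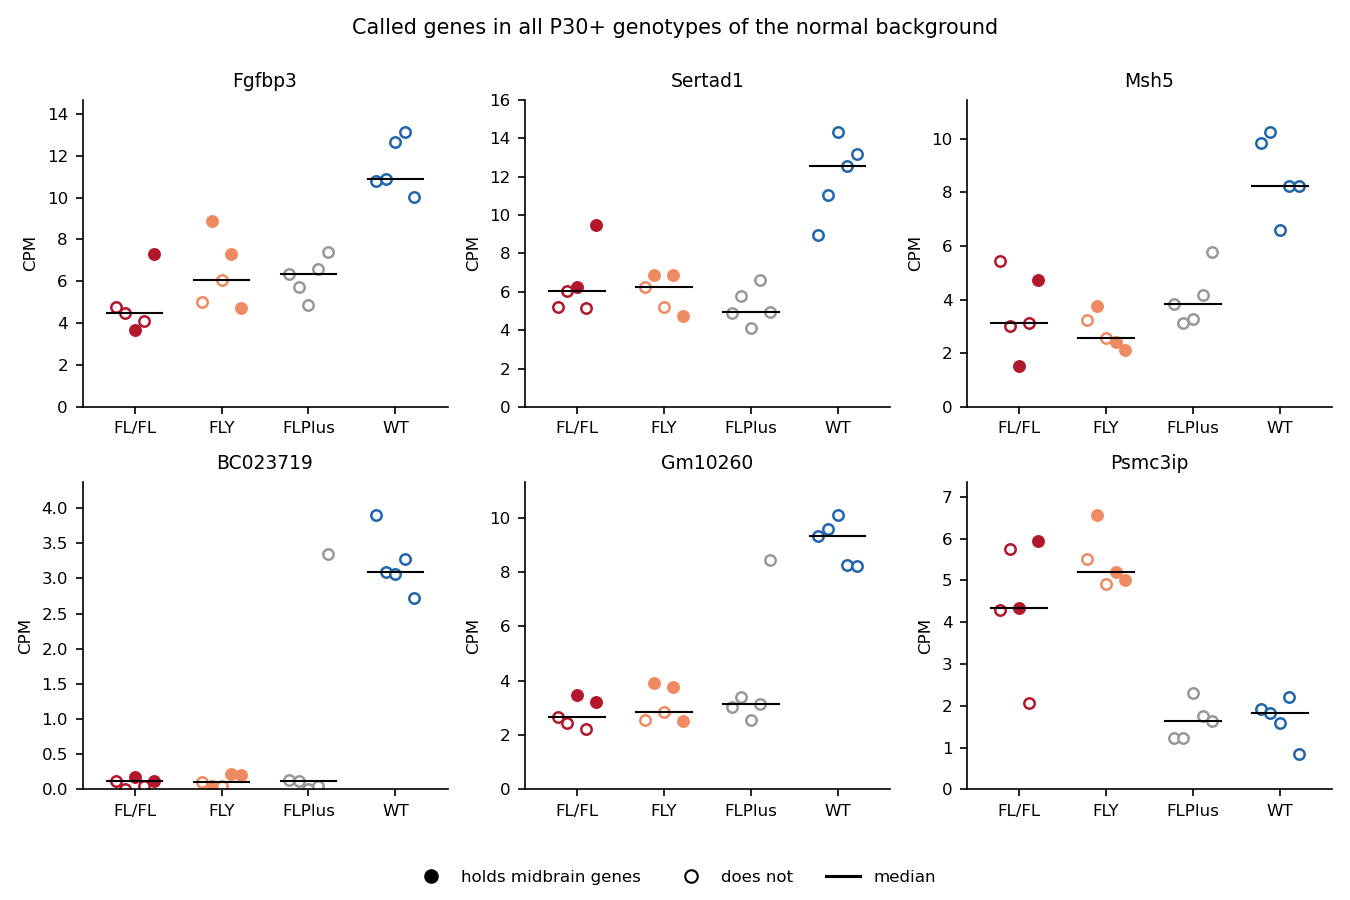
Called genes in CPM in the FL/FL, FLY, FLPlus and WT libraries of the normal background at P30+; filled points hold midbrain genes and bars are medians. FLPlus replicate 5 sits with WT for BC023719 and Gm10260, and FLPlus libraries sit with WT for Psmc3ip.

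By chromosome, 17 of 828 genes tested on chromosome 17 were called with all libraries, 2.05% against 0.684% of all genes. Once the midbrain libraries were left out, 2 of 862 were called, Gm26917 and Slc29a1, which is 0.232% against 0.184% of all genes. With all libraries the log2 folds of the 17 had both signs, 7 higher and 10 lower. They include C4b, H2-Eb1, H2-T22, Msh5, BC023719, Fkbp5, Slc29a1, Daam2, Gm26917 and Pde10a, a phosphodiesterase (82.5 to 137 CPM in FL/FL, against 167 to 228 CPM in WT). On the Y chromosome 4 of 12 genes were called, all lower: Ddx3y, Eif2s3y, Uty and Kdm5d, each with an adjusted p of 0.0074. None of the 4 was called without the midbrain libraries, with adjusted p from 0.052 to 0.0642, but the fitted folds stayed about as large, at -8.11 for Ddx3y, -9.34 for Eif2s3y, -6.79 for Uty and -8.88 for Kdm5d, against -8.16, -8.74, -7.16 and -8.46 with all libraries. Such folds of genes near 0 in FL/FL depend on the prior count. The 3 calls on the X chromosome of 723 genes, 0.415%, included Eif2s3x, an initiation factor subunit that escapes X inactivation, at 88.0 to 107 CPM in FL/FL, against 57.3 to 86.9 CPM in WT (0.56 ± 0.13, adjusted p = 0.0458). WT replicates 1 and 2, those with Xist, were its 2 highest WT libraries at 79.4 and 86.9 CPM.

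Gene groups close to DDX3X function held few calls. Of the 13 DEAD and DEAH box helicases, Ddx3y was the 1 call with all libraries, and without the midbrain ones there was none. None of the 14 translation initiation factors was called in either fit, with medians of 0.13 and 0.13, and none of the 11 genes of the integrated stress response, with medians of 0.14 and 0.15. The same held for the lists of Wnt targets, Shh targets, proliferation, immediate early and inflammasome genes, with medians of 0.02, 0.09, -0.04, 0.01 and 0.34 with all libraries and -0.03, 0.04, 0.06, -0.20 and 0.01 without. Markers of oligodendrocytes, choroid plexus, vessels, meninges and blood had no call, with medians of -0.26, -0.41, 0.07, 0.64 and -0.08 with all libraries and -0.27, -0.19, 0.04, 0.15 and -0.33 without. Choroid plexus genes summed to 101 to 4981 CPM in FL/FL and 139 to 5156 CPM in WT, a spread within each group wider than any difference between them.

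Against FLPlus cerebella, which carry the recombinase and a floxed copy and have the female pattern of Xist throughout, no gene of 18499 was called (0%) without the midbrain libraries, and 1629 had an unadjusted p under 0.05. DESeq2 called 33. Leaving out FL/FL replicate 4 as well, which leaves 2 FL/FL libraries, edgeR called 46. With all libraries in, edgeR called none. Among the genes called in both fits above, Kalrn was at 0.43 ± 0.11 (adjusted p = 0.391), Abr at 0.26 ± 0.10 (adjusted p = 0.518), Fgfbp3 at -0.43 ± 0.16 (adjusted p = 0.494) and Sertad1 at 0.10 ± 0.18 (adjusted p = 0.913) over FLPlus. Gm26917 was at 1.87 ± 0.36 (adjusted p = 0.265), against 1.83 over WT in the same fit, and Gcgr at -1.69 ± 0.48 (adjusted p = 0.416). Gpnmb was at 1.42 ± 0.32 (adjusted p = 0.361) and Myoc had 1.55 to 4.56 CPM in FLPlus, against which FL/FL held 0 to 0.880 CPM. A p above the threshold does not show that the groups are alike. Between FL/FL and FLY without midbrain libraries 1 gene was called, 0.00541%, and it was Ddx3x (1.26, adjusted p = 0.00014, edgeR). Only 3 FL/FL and 2 FLY libraries entered that contrast. Xist (9.04 ± 2.62, adjusted p = 0.516) and Kdm5d (-9.66 ± 1.97, adjusted p = 0.219) were not called in it despite their large folds. The lack of other calls therefore does not show that the groups are otherwise alike.

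In the Wnt-model background the FL/FL label had 64 calls of 18209 genes against BCP, 0.351%, with 7 higher and 57 lower, and 3 of the 5 BCP libraries held midbrain genes while no BDCP-FLFL library did. Ddx3x was not called there either (0.16, adjusted p = 0.588), where label and sex cannot be told apart. Of the 12 Wnt targets 5 were called lower there, with a median log2 fold change of -1.24, where 0.351% of all genes were called. Cd44 was called lower there too (-0.98 ± 0.17, adjusted p = 0.0138), as was 1 of the 12 microglia genes. The others of the glial genes above were not called: Gpnmb was at -0.53 (adjusted p = 0.637), Cd109 at -1.36 (adjusted p = 0.36), C4b at -1.07 (adjusted p = 0.406) and Gfap at -0.67 (adjusted p = 0.245). The difference of the FL/FL effect between backgrounds, tested as an interaction, was called for 920 of 18920 genes, 4.86%, among them Gpnmb (3.48, adjusted p = 0.00745), Cd109 (5.83, adjusted p = 0.00259), C4b (3.83, adjusted p = 0.00259), Gfap (2.65, adjusted p = 0.0117) and Kalrn (1.03, adjusted p = 0.00259). Of the 12 Wnt targets 8 were called higher in the interaction, with a median of 1.57, while their median in FL/FL over WT was 0.02. Without the libraries that hold midbrain genes 14 genes were called in the interaction, 12 higher and 2 lower.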

How the data were processed

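Total RNA of cerebella was sequenced, and the authors deposited raw counts per gene, with 32075 genes and 257 libraries. The submitters' processing notes name HISAT2, featureCounts and the build GRCm38. The release of each tool, the annotation and the strand setting were not given in the sources used here. Groups came from the labels of genotype, age and background. Gene positions came from GENCODE M21 on GRCm38, which holds 31711 of the gene IDs. Promoters came from RefSeq, and 7 of 9 genes looked up matched.

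Differences were tested on the counts in R 4.3.3 with edgeR 4.0.16 (filterByExpr with a minimum count of 10 and total of 15, TMM, quasi-likelihood F-test, two-sided), in fits of the 4 genotypes of an age and background, or of 8 groups for the interaction, and p-values were adjusted by Benjamini-Hochberg over all genes tested. Called means an adjusted p under 0.05. Each SE was obtained by dividing the size of the log2 fold change by the root of its F value. Levels were expressed as CPM of the library total, and precision is limited by the number of libraries. No library pair was identical, and the closest replicate pair differed by more than sampling noise (mean chi-square per gene 6.86, where 1 is noise). DESeq2 1.42.0, its size factors, no filter, replicate block, 2 groups alone, Xist or midbrain covariates, the listing pass as a block and each library left out were alternatives.

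The members, the 30 gene lists and the tests were chosen with earlier results of these data known. The rule for named genes took Ddx3x, Ddx3y, Xist and Fabp7, the 12 largest rises and 12 largest falls called in each fit with a mean log2 CPM not below 1 and no predicted symbol, genes called in both fits at that level, and the 4 members of each list with the smallest p; some are given. Thbs1, Klf4, H2-T22, H2-Eb1, Serpina3n, Osmr, Cd44, Daam2, Pcp2, Gabra6, Cacna1g, Gcgr and BC023719 were added after their values were seen. One list is not reported here.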

Additional observations from a re-analysis of the deposited data

Results flagged for a closer look

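Single libraries stood apart from the rest of their group for 11 of the genes named above. Each named gene was looked at in FL/FL and in WT, and chance alone marks about 1 in 20 such groups. Some of the marks can therefore come by chance, and the count is no result about the genes. In FL/FL, replicate 3 was far above the other 4 for Aldh1l1 (104 CPM), Robo1 (59.9 CPM) and Foxp2 (59.5 CPM), and it is the library with the highest midbrain sum. FL/FL replicate 5, which also holds midbrain genes, was far below the others for Homer1 (33.8 CPM) and far above them for Sertad1 (9.51 CPM). In WT, replicate 1 stood apart for Gpnmb (1.56 CPM, lowest), Kit (237 CPM, lowest) and Noct (41.0 CPM, highest), replicate 2 for Daam2 (258 CPM, highest) and Abr (171 CPM, lowest), and replicate 4 for Gm15609 (9.93 CPM, lowest).

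The effect of the FL/FL label differed between the normal and the Wnt background for 31 named genes, by the interaction term in edgeR. Over all genes tested the share was 4.86%. Many of the named genes were chosen by their difference between FL/FL and WT, which is part of this term, so the count is no separate result about them. Values are the log2 fold change of FL/FL over WT minus that of BDCP-FLFL over BCP. Glial and immune genes had positive differences: Cd109 5.83, Serpina3n 4.30, C4b 3.83, Gpnmb 3.48, Eda2r 3.21, Fcgr2b 2.78, Gfap 2.65, Osmr 1.83, Cd44 1.62 and Csf1r 1.48. So did Foxp2 (2.56), Kcna4 (2.38), Gm26917 (2.23), Sdk1 (2.10), Fkbp5 (2.00), Klf4 (1.84), Psmc3ip (1.78), Robo1 (1.27), Robo2 (1.18), Kalrn (1.03), Abr (0.99) and Slc35e1 (0.59). Negative differences were seen for Xist (-7.77, where BDCP-FLFL and BCP differ in sex pattern throughout and WT is mixed), BC023719 (-4.95), Gcgr (-2.46), Kit (-1.68), Gm10260 (-1.63), Fgfbp3 (-1.15), Gm15609 (-1.04), Sertad1 (-1.02) and Pde10a (-0.99). Libraries that hold midbrain genes lie in FL/FL of the normal background and in BCP, which both enter this difference with a plus sign, and the calls over all genes fell to 14 without them, against 920 with them.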

How the results depend on the processing

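Counts of called genes moved with most choices, and the causes were not tested. With all libraries the 122 calls were 806 with DESeq2, 18 with FL/FL and WT libraries alone, 0 with Xist as a covariate, 46 with the listing pass as a block, 64 with the midbrain score as a covariate and 17 to 558 with 1 library left out. They stayed within 1.5 times with DESeq2's size factors (113), without a filter (86) and with the replicate block (96). Without the midbrain libraries the 34 calls were 680 with DESeq2, 151 without a filter, 508 with the replicate block, 240 with FL/FL and WT alone, 415 with Xist, 2 with the pass as a block and 0 to 152 with 1 library left out; DESeq2's size factors gave 40 and a threshold of 10 times the WT median 36. Replicate numbers did not pair the libraries, since same-numbered FL/FL and WT libraries correlated at -0.206 to 0.432 and only 1 of 5 pairs was over 0.1. Over FLPlus the 0 calls were 33 with DESeq2, 0 with the replicate block and 0 to 46 with 1 library left out. At P13 the 86 calls were 400 with DESeq2, 33 with the replicate block, 22 without libraries over 10 times the midbrain median, an alternative chosen after seeing the data, and 24 to 192 with 1 library left out. In the Wnt background the 64 calls were 271 with DESeq2, 34 without midbrain libraries, 39 with the replicate block and 27 to 130 with 1 library left out. The interaction's 920 calls were 1456 with DESeq2 and 14 without midbrain libraries.

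Signs turned in the cases that follow. With all libraries, Ddx3x was at -0.066 with Xist, -0.031 with the pass and -0.012 to 0.077 with 1 library left out (lowest without WT replicate 4), Ddx3y at 0.87 and Pcp2 at -0.045 with Xist, Pcp2 at -0.045 to 0.221 with 1 library left out (below 0 without FL/FL replicate 1 or 2, at -0.033 for the second), and Gabra6 at -0.253 to 0.028 with 1 left out (above 0 without FL/FL replicate 3) and 0.047 with the midbrain score. Without the midbrain libraries, Ddx3x was at -0.033 with Xist and -0.010 with the pass, Ddx3y at 1.63 with Xist, Cd44 at 0.022 with the replicate block, 0.229 with Xist and 0.257 at the higher threshold, Serpina3n at -1.23 (without FL/FL replicate 1) to 1.119 with 1 library left out, and Osmr at -0.298 (without FL/FL replicate 4) to 0.241, with -0.008 without WT replicate 2. Of the tests of named called genes under an alternative, 495 kept the call, 254 lost it and 1 turned with all libraries, and 169 kept and 134 lost it without the midbrain ones.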
